A study of Homo sapiens with 12 samples.

Results

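A control siRNA transfection was compared with no treatment in the established human melanoma line A2058. The comparison used 6 of the 12 RNA-seq libraries of the series, 3 from untreated cells and 3 from cells given a negative control siRNA (siCNTL) at 12.5 nM with the lipid reagent Lipofectamine RNAiMAX, with RNA taken after 96 hours. The labels do not give the time at which untreated cells were harvested, so a difference in culture time cannot be told apart from transfection. The siCNTL libraries come from 96 hours only. All values and bounds below hold for that time, and changes that came and went earlier were not tested. The other 6 libraries came from cells given either of 2 siRNAs against SOX10 by the same protocol, and they enter here only where their values are set beside those of the control. All cells were grown in RPMI1640 with fetal bovine serum and antibiotics, and the labels name 3 batches with 1 library of every group in each, so siCNTL and untreated libraries were paired by batch. The labels describe no cells that received the lipid without siRNA, so the reagent, the RNA duplex and the handling cannot be told apart. Values are TPM, transcript abundance per length on a common total for each library. Of the 61587 genes listed, 14177 had at least 1 TPM in at least 3 of the 6 libraries and were tested on log2(TPM + 1). The labels do not say that replicates were separate cultures, so a p-value here reflects only how far these libraries spread, which may be technical.

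Cationic lipids pack siRNA into particles that cells take up by endocytosis, and the siRNA is loaded into Argonaute proteins after release into the cytosol. Double-stranded RNA can also be bound by sensors such as RIG-I (DDX58), MDA5 (IFIH1), PKR (EIF2AK2) and the endosomal TLR3, whose signalling induces interferons and interferon-stimulated genes. A non-targeting siRNA is used as the baseline of a knockdown because it carries these effects without a chosen target.

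The untreated libraries of batches 1, 2 and 3 had 20396, 20685 and 21587 genes above 0, and the siCNTL libraries 21982, 21975 and 21719. Every siCNTL library was thus above every untreated one, while genes at 1 TPM or more numbered 13826 to 14351 with overlap. Summed lncRNA levels were also apart, at 15908, 17773 and 17448 TPM in untreated and 19632, 18304 and 18884 TPM in siCNTL libraries. How far this bears on the differences of single genes was not tested. TPM keep no depth, so the read number behind each value is unknown. The melanocyte lineage markers SOX10, MITF, TYR, TYRP1, DCT, PMEL and MLANA summed to 9160 to 9806 TPM in untreated and 6360 to 10247 TPM in siCNTL libraries. Of 10 fibroblast markers 6 stayed under 1 TPM in all 6 libraries, as did 6 of 10 epithelial and 8 of 12 leukocyte and endothelial markers. The fibroblast list summed to 158 to 235 TPM in untreated and 179 to 210 TPM in siCNTL libraries, most of it from LUM, the matrix protein lumican, at up to 223 TPM. The epithelial list summed to 138 to 190 TPM against 131 to 227 TPM, with keratin KRT18 at up to 159.9 TPM. The leukocyte and endothelial list summed to 30.6 to 37.4 TPM in untreated and 39.5 to 51.3 TPM in siCNTL libraries, nearly all from CD68, a lysosomal protein, and the part of other cell types in the results was not tested. The siCNTL library of batch 3 stood furthest from its own group, with a median absolute log2 difference of 0.31 from the siCNTL library of batch 1 and 0.32 from that of batch 2, against 0.21 between those of batches 1 and 2. Both batch 3 libraries held more ribosomal RNA (16453 and 18610 TPM) than the other 4 (3849 to 8207 TPM).

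Control transfection gave 1 called gene, the lncRNA MALAT1, and its differences over all genes were about as large as those between untreated libraries. The median absolute log2 fold change over all genes was 0.15, and the middle 90% of genes lay between -0.39 and 0.50. Within a batch, an siCNTL library differed from the untreated one by a median of 0.22 to 0.24 on the log2 scale, while untreated libraries of different batches differed by 0.20 to 0.24. With limma and the batch as a block, 1 gene passed an adjusted p of 0.05, which is 0.00705% of the genes tested, and it was higher with siCNTL. No gene was called lower. Without adjustment for the number of genes 956 (6.74%) had a p under 0.05, 502 of them higher (3.54%) and 454 lower (3.20%). In all 3 batches the difference had 1 sign for 3968 genes (28.0%). The groups did not overlap for 1409 (9.94%), 674 of them higher (4.75%) and 735 lower (5.18%). With 3 against 3 libraries, full separation has an exact two-sided p of 0.1 when group labels are exchanged at random, ignoring batch. The share of genes without overlap lay near that value, so no overlap of a single gene is only a description.

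**Figure D1:**
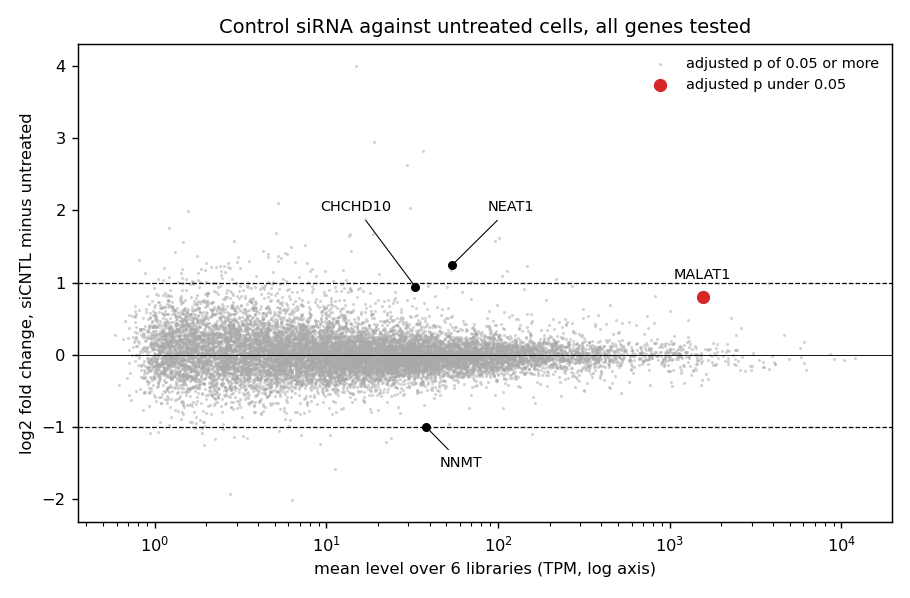
Mean level over the 6 libraries (TPM, log axis) against the log2 fold change of siCNTL over untreated cells, 1 point for each of 14177 genes, with dashed lines at 2-fold. MALAT1 is the point past an adjusted p of 0.05, and the points spread more widely at low levels.

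The intervals bound what the 3 pairs leave possible for each gene. The 95% interval of the log2 fold change lay wholly within 2-fold for 12264 genes (86.5%) and within 1.5-fold for 6650 (46.9%). The bound depended on the level. Among 4170 genes averaging under 5 TPM, 66.8% were bounded within 2-fold and 2.16% within 1.5-fold. At 5 to 20 TPM these shares were 90.8% and 37.7% of 4244 genes, and at 20 to 100 TPM 97.7% and 82.8% of 3977 genes. Of 1786 genes at 100 TPM and over, 97.4% and 93.4% were so bounded, with a median half-width of 0.22. These intervals are for single genes and are not adjusted for their number. They are on log2(TPM + 1), and the share of all genes within 2-fold was 71.4% with a pseudocount of 0.1 and 98.1% with 5. Fitted changes of 2-fold or more were found for 113 genes, 91 higher and 22 lower, of which 40 were processed pseudogenes, 27 lncRNAs and 25 protein-coding.

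MALAT1 (chromosome 11, 65497688 to 65506516, plus strand, GRCh38), an abundant nuclear lncRNA of splicing speckles, was the gene called. Its levels were 1011, 1029.9 and 1385 TPM in the untreated libraries of batches 1, 2 and 3 and 2041, 1779 and 2078 TPM in the siCNTL libraries. Every siCNTL library was above every untreated one. MALAT1 rose by a log2 fold change of 0.80 (95% interval 0.60 to 0.99, adjusted p = 0.0357), a 1.74-fold difference. The call rested on the block and on single libraries: the adjusted p was 0.414 without the replicate block, 0.261 without untreated replicate 1, 0.0676 without untreated replicate 2, 0.184 without siCNTL replicate 1 and 0.0608 without siCNTL replicate 2. It was also lost with a pseudocount of 0.1 (0.0502), without the filter on low genes (0.771) and under median-of-ratios scaling (0.272) or quantile normalization (0.214), with limma's trend and robust options off (0.767) and with all 12 libraries in the fit (0.614 with and 0.999 without the block). Without untreated or siCNTL replicate 3 it held (4.06e-10 and 5.25e-10). With the batch as a block, leaving out either library of batch 3 leaves the same 2 pairs, those of batches 1 and 2. Here and below, the 2 adjusted p values of such fits are therefore 1 check, with 1 residual degree of freedom per gene.

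NEAT1 (chromosome 11, 65422774 to 65445540, plus strand), the neighbouring lncRNA and scaffold of paraspeckles, showed the same direction with more spread. It was at 33.1, 19.9 and 43.9 TPM in untreated and 95.4, 70.2 and 60.4 TPM in siCNTL libraries. The groups did not overlap, but the difference in batch 3 (0.45 on the log2 scale) was smaller than in batches 1 and 2 (1.497 and 1.77). The log2 fold change was 1.24 (0.59 to 1.89), with an adjusted p of 0.504. Without untreated or siCNTL replicate 3 it passed the test at 1.63 (adjusted p = 2.61e-11 and 7.43e-11), and in no other alternative fit. MALAT1 and NEAT1 are retained in the nucleus, and how much of each library's RNA was nuclear was not tested.

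Ranked by the smallest of the 3 batch differences, 76 genes were higher by at least 0.5 on the log2 scale in every batch (0.536% of those tested) and 32 were lower (0.226%), together 0.762%. MALAT1 was among the higher ones, and none of the others passed the adjusted test. Among the higher protein-coding genes, CHCHD10 (chromosome 22, 23765834 to 23767972, minus strand), which encodes a mitochondrial protein of the intermembrane space, had the lowest adjusted p. Its levels were 19.5, 21.6 and 26.0 TPM in untreated and 41.4, 44.3 and 45.1 TPM in siCNTL libraries. The groups were well apart, and the log2 fold change was 0.94 (0.63 to 1.26, adjusted p = 0.157). It passed with a filter at 5 TPM (adjusted p = 0.0284) and, at 1.03, without untreated or siCNTL replicate 3 (0.000472 and 0.000869). CHCHD10 passed in no other alternative fit.

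ATF6B, a membrane-bound transcription factor related to the stress sensor ATF6, was at 12.0, 9.97 and 10.1 TPM in untreated and 19.8, 19.7 and 18.6 TPM in siCNTL libraries. EHBP1L1, a protein that links Rab GTPases to tubular endosomes, was at 2.27, 2.15 and 3.11 TPM against 5.02, 7.91 and 13.8 TPM. Neither pair of groups overlapped, and the log2 fold changes were 0.81 (0.42 to 1.19) and 1.41 (0.84 to 1.98). TMEM91 had a log2 fold change of 0.78 (0.28 to 1.27) but overlaps the more abundant genes TGFB1 and B9D2 on the other strand, and the sources used here do not say whether reads were counted by strand. TSC22D3, which encodes the glucocorticoid-induced leucine zipper protein, was named after its values were seen. Its levels were 38.4, 36.0 and 43.6 TPM in untreated and 59.5, 73.1 and 55.5 TPM in siCNTL libraries, without overlap. EHBP1L1 passed the test at 1.19 without untreated or siCNTL replicate 3 (adjusted p = 0.0253 and 0.0480), as did TSC22D3 at 0.81 (0.00332 and 0.00427). Neither passed in any other alternative fit.

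Several of the genes that ranked highest were pseudogenes and small RNAs with values of 0 in some libraries. RPS29P5, a processed pseudogene of a ribosomal protein, was listed at 0, 0 and 4.23 TPM in untreated libraries and at 30.8, 16.9 and 37.0 TPM with siCNTL (adjusted p = 0.0908). It passed the filter on low values only through the siCNTL libraries. Its parent RPS29 was at 1362, 1749 and 1747 TPM against 1973, 1355 and 1854 TPM, with overlap, and reads of the near-identical copies cannot be told apart. RN7SL3, a copy of the signal recognition particle RNA, was at 0.722, 2.35 and 8.64 TPM against 8.94, 5.62 and 19.1 TPM. Without untreated or siCNTL replicate 3, RN7SL3 passed at 1.76 (adjusted p = 0.000697 and 0.000869) and RPS29P5 at 4.58. RPS29P5 also passed with a pseudocount of 5 or a filter at 5 TPM. Its untreated values in batches 1 and 2 are 0 and the siCNTL libraries brought it into the test, so its passes are no support for a difference. The widest range over batches belonged to genes of this kind: ENSG00000279009, whose type is not settled in the annotation, was listed at 0, 0 and 40.5 TPM in untreated and 34.3, 37.7 and 0 TPM in siCNTL libraries, and MIR1307 at 50.8, 0 and 172 TPM against 0, 70.7 and 244 TPM. Over 522 processed pseudogenes the median batch differences were 0.49, -0.30 and 0.79, so batch 2 had the opposite sign. Their summed level was 10946, 18883 and 13597 TPM in untreated and 16574, 15220 and 23185 TPM in siCNTL libraries.

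Of the genes lower in every batch, NNMT (chromosome 11, 114257787 to 114313536, plus strand), the nicotinamide N-methyltransferase, had the largest smallest difference (-0.84) among genes averaging at least 5 TPM. It was at 68.0, 68.4 and 19.4 TPM in untreated and 32.3, 30.96 and 10.4 TPM in siCNTL libraries. Batch 3 had the lower level in both groups, so the groups overlapped while each pair showed the same direction. The log2 fold change was -1.003 (-1.32 to -0.69), a 2.00-fold lower level, with an adjusted p of 0.114. It passed with a filter at 5 TPM (adjusted p = 0.0256) and, at -1.08, without untreated or siCNTL replicate 3 (1.31e-04 and 6.71e-05). NNMT passed in no other alternative fit.

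PDLIM3, a PDZ and LIM domain protein of the actin cytoskeleton, was at 21.4, 23.9 and 23.3 TPM against 10.4, 13.6 and 15.9 TPM with siCNTL. GPR176, an orphan G protein-coupled receptor, was at 9.06, 7.94 and 8.51 TPM against 3.43, 5.10 and 5.18 TPM. These groups did not overlap, and the log2 fold changes were -0.76 (-1.14 to -0.37) and -0.79 (-1.30 to -0.28). C1S, a protease of the classical complement pathway, was at 8.95, 8.55 and 5.63 TPM against 4.19, 4.56 and 3.08 TPM. KCNJ13, an inward rectifier potassium channel, was at 7.38, 8.46 and 8.87 TPM against 4.94, 4.49 and 2.69 TPM, and SLC39A10, a zinc importer, was at 27.0, 26.0 and 33.1 TPM against 16.5, 18.1 and 22.4 TPM. The adjusted p values of these 5 genes ran from 0.372 to 0.549. PDLIM3 passed at -0.87 without siCNTL replicate 3 (adjusted p = 0.0418) and only just without untreated replicate 3 (0.0499992). C1S overlaps LPCAT3 and KCNJ13 overlaps GIGYF2 on the other strand, each over 1 TPM. The others of this rank were FDCSP, CCNE2, GUSBP3, METTL27, TAPT1 and NAV1.

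**Figure D2:**
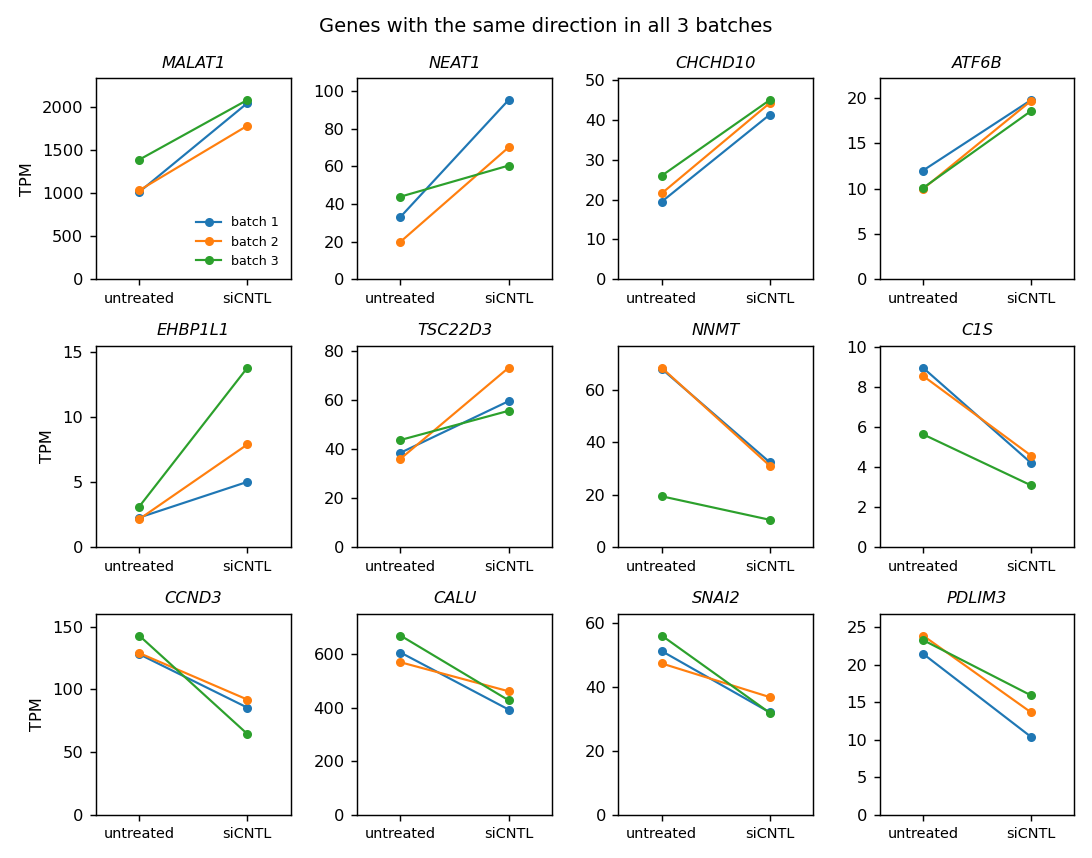
Levels (TPM, linear axes from 0) of 12 genes in the untreated and siCNTL library of each batch, joined by a line for each batch. In each of these genes all 3 lines point the same way, and for NNMT the batch 3 line lies below the others.

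Interferon-stimulated genes, the known response to long RNA duplexes, carry defined promoter elements. The interferon-stimulated response element has a core of GAAA, any 2 bases and GAAA, and the gamma-activated site, bound by STAT dimers, the core TTCNNNGAA. Both were searched on both strands from 250 bases before to 50 bases after the gene start in the RefSeq promoters of GRCh38.p14, and overlapping matches were kept. The first was found in 3.57% and the second in 7.66% of 35116 promoters. Shown here are promoters of 3 genes whose products mark an interferon response (IFIT1 and ISG15) or sense long duplex RNA (IFIH1), with the first core in capitals, and that of IRF1, with the second. They lie at chr10:89392373-89392672 (plus strand), chr1:1013247-1013546 (plus), chr2:162318635-162318934 (minus) and chr5:132490724-132491023 (minus). IFIT1 holds 2 matches, ISG15 2 that overlap, IFIH1 3 and IRF1 1.
IFIT1: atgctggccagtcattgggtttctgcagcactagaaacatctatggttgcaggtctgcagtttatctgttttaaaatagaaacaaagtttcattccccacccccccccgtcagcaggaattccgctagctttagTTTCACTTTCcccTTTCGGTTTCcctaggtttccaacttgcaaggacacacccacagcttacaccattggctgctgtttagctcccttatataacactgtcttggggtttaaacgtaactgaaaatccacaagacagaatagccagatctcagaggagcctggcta
ISG15: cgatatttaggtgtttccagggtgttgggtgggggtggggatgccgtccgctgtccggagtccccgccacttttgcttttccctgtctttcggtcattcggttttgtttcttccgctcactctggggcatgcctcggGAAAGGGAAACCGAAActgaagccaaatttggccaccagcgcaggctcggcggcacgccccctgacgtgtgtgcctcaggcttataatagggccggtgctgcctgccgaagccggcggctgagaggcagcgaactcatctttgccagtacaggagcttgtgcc
IFIH1: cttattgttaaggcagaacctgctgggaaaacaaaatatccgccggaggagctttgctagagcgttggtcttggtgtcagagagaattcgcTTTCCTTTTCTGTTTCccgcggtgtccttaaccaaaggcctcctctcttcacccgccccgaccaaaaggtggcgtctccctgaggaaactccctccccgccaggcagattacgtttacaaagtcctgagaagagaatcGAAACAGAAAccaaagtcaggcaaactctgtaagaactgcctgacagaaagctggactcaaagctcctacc
IRF1: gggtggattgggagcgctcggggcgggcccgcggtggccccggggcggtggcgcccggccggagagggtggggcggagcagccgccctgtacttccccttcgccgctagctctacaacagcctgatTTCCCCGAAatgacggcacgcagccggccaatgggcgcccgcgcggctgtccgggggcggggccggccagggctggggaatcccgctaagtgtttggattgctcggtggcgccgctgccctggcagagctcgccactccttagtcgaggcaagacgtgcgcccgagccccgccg

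IFIT1, which binds foreign RNA 5′ ends, was at 3.97, 3.43 and 3.67 TPM in untreated and 4.14, 3.60 and 3.41 TPM in siCNTL libraries. The groups overlapped, and the log2 fold change of 0.01 had an interval from -0.53 to 0.54. IFIT1 overlaps LIPA, over 1 TPM, on the other strand, so reads of LIPA may enter its level. ISG15, a ubiquitin-like modifier, was at 49.1, 51.0 and 42.2 TPM against 63.8, 68.2 and 42.7 TPM, an interval from -0.02 to 0.56. IFIH1, the sensor MDA5, was at 8.04, 6.83 and 5.94 TPM against 6.81, 11.3 and 6.48 TPM. The groups of IFIH1 overlapped, and its interval ran from -0.33 to 0.69. Among the 387 tested genes with the first core in a promoter the median batch differences were -0.08, 0.09 and -0.06, against -0.07, 0.09 and -0.06 for all 9955 genes with a promoter in the table. A match is a description of the sequence and says nothing of binding.

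Of 36 type I interferon-stimulated genes 30 were tested and none was called, with 2 higher and 0 lower at an unadjusted p under 0.05 in limma. Over all genes 3.54% were higher and 3.20% lower at that threshold, and the same shares apply to each list below. The interval lay within 2-fold for 26 of the 30 (86.7%). Their median log2 fold change was 0.04, against 0.00 for all genes. By batch the medians were -0.02, 0.33 and -0.12, against -0.04, 0.09 and -0.05 for all genes, and 29 of the 30 were higher in batch 2 (96.7%, against 61.2% of all genes). The same direction in every batch was seen for 5 members, all higher, against 13.7% of all genes higher and 14.3% lower in every batch. USP18, a protease that removes ISG15 and restrains interferon signalling, was at 3.35, 4.17 and 1.51 TPM in untreated and 6.24, 8.56 and 5.23 TPM in siCNTL libraries. IFI27, a mitochondrial interferon-induced protein, was at 1.36, 1.89 and 0.448 TPM against 3.61, 4.25 and 2.18 TPM. In both genes every siCNTL library was above every untreated one. Their log2 fold changes were 0.98 (0.44 to 1.52) and 0.99 (0.39 to 1.59), with adjusted p of 0.454 and 0.510.

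**Figure D3:**
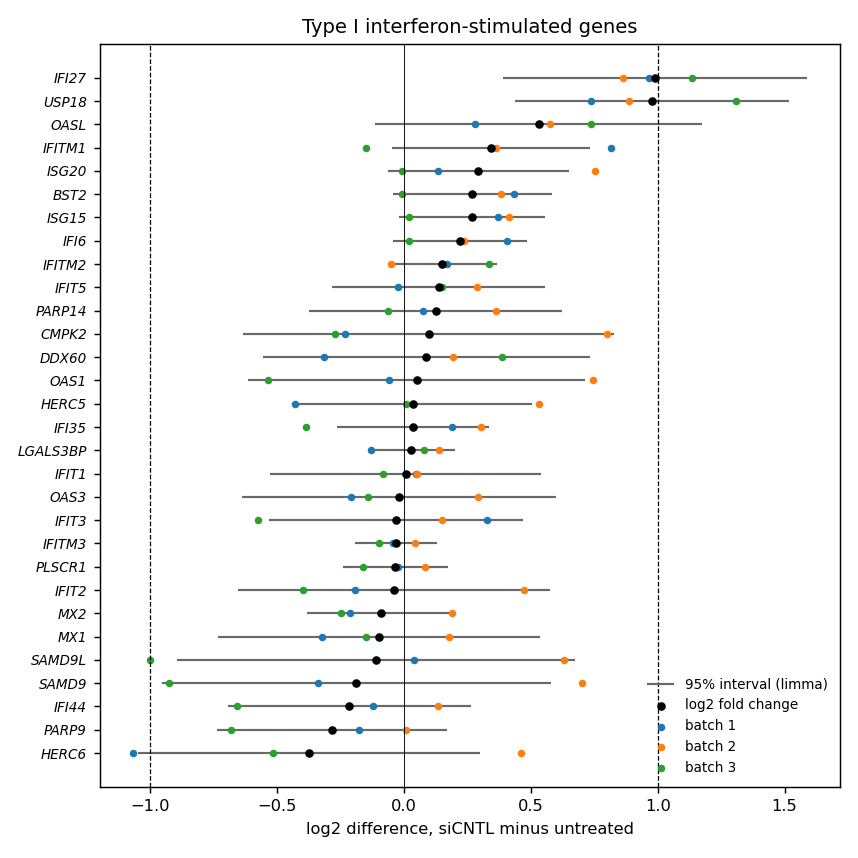
Log2 differences of siCNTL minus untreated for the 30 tested interferon-stimulated genes. Black points are the fold change and bars its 95% interval from limma, coloured points are the 3 batches and dashed lines mark 2-fold. The batch 2 points lie to the right of 0 for 29 genes.

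IRF1, a transcription factor of interferon responses and a gene of the series title, set batch 2 apart. It was at 7.10, 12.7 and 5.77 TPM in untreated and 8.68, 39.3 and 5.79 TPM in siCNTL libraries. The siCNTL library of batch 2 was above all others, and the untreated library of batch 2 was the next highest. The log2 fold change was 0.60, with an interval from -0.06 to 1.27. IRF1 overlaps IRF1-AS1 on the other strand. Of 30 genes of the interferon gamma and IRF1 response 22 were tested, none was called (1 higher and 0 lower unadjusted), and 20 were higher in batch 2 (90.9%, against 61.2% of all genes). The MHC class I list had 12 of 13 tested, all 12 within 2-fold.

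Sensors and signalling proteins of double-stranded RNA were tested for 15 of 20 genes. None was called, 0 being higher and 1 lower at an unadjusted p under 0.05, and the batch medians were -0.17, 0.35 and 0.15. The median log2 fold change was 0.19, against 0.00 for all genes. In every batch 5 members were higher and 2 lower, against 13.7% and 14.3% of all genes. Without overlap of the groups 1 member was higher and 2 were lower, against 4.75% and 5.18% of all genes. The interval lay within 2-fold for 11 of the 15 (73.3%, against 86.5% of all genes). TBK1, a kinase that activates interferon induction, was at 281, 221 and 111 TPM in untreated and 136, 30.7 and 163 TPM in siCNTL libraries, lower in batches 1 and 2 and higher in batch 3, and its interval ran from -4.73 to 2.53. EIF2AK2, the kinase PKR, was at 28.2, 23.0 and 28.3 TPM in untreated and 29.9, 30.7 and 29.9 TPM in siCNTL libraries. It was higher in every batch without overlap of the groups, with an interval from -0.14 to 0.52. The EIF2AK2 gene overlaps GPATCH11 on the other strand. IRF7 was at 3.97, 1.97 and 2.425 TPM against 4.38, 6.40 and 3.59 TPM (0.62, -0.02 to 1.25). DHX58 was at 4.01, 4.23 and 1.81 TPM against 5.84, 5.43 and 2.82 TPM (0.40, -0.13 to 0.93). Both were higher in every batch with overlap. TLR3 stayed between 1.23 and 2.79 TPM in all 6 libraries, and TLR7 and TLR8 were listed at 0 in all 6.

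Interferon transcripts themselves were near 0 in these libraries. Earlier times after transfection were not measured, so an earlier rise was not tested. IFNL1, IFNL2 and IFNL3 were listed at 0 in all 6 libraries, and IFNB1 was listed at 0 in 5 and at 0.395 TPM in the siCNTL library of batch 3. The chemokine CXCL10 lay between 0.064 and 0.766 TPM and TNF between 0 and 0.123 TPM. Among NF-kB targets and inflammatory cytokines 15 of 25 were tested and none was called (1 higher and 0 lower unadjusted). TNFAIP3, an inhibitor of NF-kB signalling, was at 11.9, 11.1 and 12.5 TPM against 15.3, 19.99 and 16.5 TPM, without overlap (0.50, 0.09 to 0.91). CXCL8, the neutrophil chemokine interleukin-8, was at 18.7, 13.6 and 19.1 TPM against 25.5, 25.2 and 8.70 TPM, higher in batches 1 and 2 and lower in batch 3.

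Of 17 genes of the machinery that uses siRNA 16 were tested, and none was called. Unadjusted, 2 were higher and 2 lower, against 3.54% and 3.20% of all genes. The median log2 fold change was -0.06, with batch medians of -0.12, -0.09 and -0.11, and 11 of the 16 were below 0. AGO3, an Argonaute protein, was at 6.97, 6.14 and 5.05 TPM in untreated and 7.93, 9.53 and 12.5 TPM in siCNTL libraries. AGO4, another Argonaute, was at 2.48, 1.91 and 2.02 TPM against 2.81, 4.04 and 5.16 TPM. Neither overlapped between groups, and the intervals were 0.10 to 1.15 and 0.03 to 1.27. TSN, a subunit of the C3PO nuclease, was at 142, 125 and 105 TPM against 106, 97.9 and 78.9 TPM, lower in each batch with overlap (-0.39, -0.62 to -0.17).

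Cholesterol synthesis and uptake genes were tested for 24 of 26 members, and all 24 intervals lay within 2-fold. None was called (1 higher and 0 lower unadjusted), the median log2 fold change was 0.09, and 9 members were higher in every batch while 0 were lower in every batch. Over all genes those shares were 13.7% and 14.3%. INSIG1, which retains the SREBP complex in the endoplasmic reticulum, was at 79.7, 77.9 and 79.8 TPM against 80.5, 101 and 104 TPM. Its groups did not overlap, and the interval was -0.01 to 0.51. TM7SF2, a sterol reductase, had the largest difference of the members higher in every batch, with 18.6, 16.7 and 7.88 TPM against 22.7, 25.1 and 12.1 TPM (0.47, 0.08 to 0.85).

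All 19 fatty acid synthesis genes tested of 20 lay within 2-fold, as did all 23 endocytosis and membrane trafficking genes and all 31 lysosome and autophagy genes. None of them was called; unadjusted, 0 were higher and 1 lower, 0 and 0, and 2 and 3. SCD, the stearoyl-CoA desaturase, was at 278, 272 and 204 TPM in untreated and 180.3, 239 and 189 TPM in siCNTL libraries (-0.31, -0.56 to -0.06). CTSL, a lysosomal cysteine protease, was at 111, 94.0 and 80.3 TPM against 116, 133 and 115 TPM, without overlap (0.36, 0.09 to 0.62). EHD1, which acts in endosomal recycling, was at 11.5, 9.29 and 18.1 TPM against 12.5, 19.1 and 21.1 TPM, with overlap.

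Heat shock genes were tested for all 19 members and none was called. Unadjusted, 4 were higher and 0 lower, against 3.54% and 3.20% of all genes. Of the 19, 8 were higher in every batch and 0 lower, against 13.7% and 14.3% of all genes. The batch medians were 0.12, 0.25 and 0.08. HSPA1B, an inducible HSP70 chaperone, was at 78.0, 72.0 and 145 TPM in untreated and 104, 127 and 198 TPM in siCNTL libraries. The groups overlapped because batch 3 was higher throughout, and the log2 fold change was 0.55 (0.30 to 0.81, adjusted p = 0.301). HSPA1A, a near-identical copy with which reads may be shared, gave 0.42 (0.19 to 0.65). Both passed the test without untreated or siCNTL replicate 3, HSPA1B at 0.61 (adjusted p = 0.0139 and 0.0162) and HSPA1A at 0.49 (0.0337 and 0.0354). HSPA4L, a nucleotide exchange factor of HSP70, was at 18.9, 20.1 and 24.7 TPM against 29.3, 31.1 and 31.5 TPM, without overlap.

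Endoplasmic reticulum stress genes had batch medians of opposite sign. The unfolded protein response list had all 18 members tested and none called, with batch medians of 0.15, 0.49 and -0.17. Unadjusted, 4 of its members were higher and 1 lower, against 3.54% and 3.20% of all genes. The ATF4 and amino acid response list had 21 of 25 tested, none called (1 higher and 1 lower unadjusted), and batch medians of 0.09, 0.42 and -0.15. DDIT3, the stress transcription factor CHOP, was at 329, 295 and 81.5 TPM in untreated and 571, 668 and 63.7 TPM in siCNTL libraries. It was thus higher with siCNTL in batches 1 and 2, lower in batch 3, and at its lowest in both batch 3 libraries. DDIT3 overlaps MARS1 on the other strand. HSPA5, the chaperone BiP, was at 1146, 1003 and 677 TPM against 1257, 1686 and 504 TPM. SDF2L1, a partner of BiP, was at 254, 229 and 177 TPM against 392, 418 and 158 TPM. The intervals of these 3 genes were -0.76 to 1.84, -0.65 to 0.95 and -0.11 to 0.99, so the 3 pairs bound DDIT3 only loosely. Without untreated or siCNTL replicate 3, 3 of the 18 and 4 of the 21 genes passed the test, all higher. They were SDF2L1, HERPUD1 and MANF in the first list and DDIT3, CHAC1, TRIB3 and DDIT4 in the second. Of all 14177 genes tested, 149 passed without untreated replicate 3 and 144 without siCNTL replicate 3. DDIT3 was then at 0.99 (adjusted p = 1.82e-08 and 1.48e-08) and SDF2L1 at 0.74 (4.63e-05 and 4.18e-05).

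Immediate early and AP-1 genes were tested for 23 of 28 members, and none was called. Unadjusted, 4 were higher and 1 lower, against 3.54% and 3.20% of all genes. Of the 23, 10 were higher and 2 lower in every batch, against 13.7% and 14.3% of all genes. DUSP1, a phosphatase of MAP kinases, was at 17.5, 22.5 and 17.5 TPM in untreated and 26.6, 33.0 and 38.4 TPM in siCNTL libraries, without overlap (0.73, 0.37 to 1.10, adjusted p = 0.370). EGR1, a growth factor-induced transcription factor, was at 1.51, 1.36 and 0.159 TPM against 4.20, 4.23 and 0.237 TPM, low in both batch 3 libraries. JUN, a subunit of AP-1, was at 9.94, 11.8 and 10.5 TPM against 6.74, 8.95 and 5.91 TPM, without overlap and lower in every batch.

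Other stress and signalling lists had no called member either. Unadjusted, the p53 target list had 1 higher and 1 lower of 22, the apoptosis list 0 and 3 of 21, the NRF2 list 0 and 2 of 21 and the metal response list 1 and 2 of 6. The median log2 fold changes of these 4 lists were 0.03, -0.04, -0.03 and 0.19. NQO1, an NRF2-induced quinone reductase, was at 3218, 2958 and 3476 TPM in untreated and 2774, 2745 and 2783 TPM in siCNTL libraries, without overlap (-0.21, -0.37 to -0.06). MCL1, a BCL2 family protein that keeps cells alive, was at 23.8, 22.2 and 18.2 TPM against 15.3, 19.4 and 12.8 TPM, lower in every batch with overlap. DNA sensing genes had 0 and 0 of 11, cholesterol efflux genes 0 and 0 of 11, and lipid droplet and fatty acid oxidation genes 2 and 1 of 17. In the last 2 lists the interval lay within 2-fold for 10 of 11 (90.9%) and 14 of 17 (82.4%). CPT1B and ACADVL of the last list, both of fatty acid oxidation, passed the test without untreated or siCNTL replicate 3, both higher.

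YAP and TAZ targets had 0 higher and 1 lower of 17 unadjusted and the lowest median of the lists with at least 10 tested (-0.15). CCN2, a matricellular protein and a standard YAP target, was at 10.6, 8.63 and 9.25 TPM against 8.16, 6.17 and 3.40 TPM, without overlap (-0.66, -1.19 to -0.13). Focal adhesion and integrin genes had 0 and 0 of 24, and no member kept 1 sign in all 3 batches. The hypoxia and glycolysis list had 1 and 2 of 28. In it NDRG1, a hypoxia-induced gene, was at 34.7, 179 and 19.4 TPM in untreated and 24.5, 34.4 and 18.5 TPM in siCNTL libraries, where the untreated library of batch 2 stood apart and widened the interval to -2.93 to 1.00. Invasive melanoma genes had 1 and 5 of 19, replication-dependent histones 1 and 0 of 16, and housekeeping references 0 and 2 of 15, all 15 within 2-fold. Over all genes the unadjusted shares were 3.54% higher and 3.20% lower. All 30 cytosolic ribosomal proteins lay within 2-fold (0 and 2 unadjusted), with intervals between -0.37 and 0.38.

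Transcripts of the mitochondrial genome had the highest median of the lists with at least 10 tested. All 15 members were tested and none was called. Unadjusted, 5 were higher and 0 lower, against 3.54% and 3.20% of all genes. All 15 had a log2 fold change above 0, with a median of 0.44. By batch the medians were 0.71, 0.57 and -0.07. MT-CO2, a subunit of cytochrome c oxidase, was at 2015, 1865 and 2960.1 TPM in untreated and 3171, 2798 and 2707 TPM in siCNTL libraries. The untreated library of batch 3 was thus at the level of the siCNTL libraries. The 13 mitochondrial mRNAs together held 9203, 8625 and 12924 TPM against 14751, 13376 and 12378 TPM. Without untreated or siCNTL replicate 3, 12 of the 15 genes passed the test, all higher, with MT-CO2 at 0.62 (adjusted p = 1.41e-05 and 1.16e-05). Of all 14177 genes tested, 149 and 144 passed in these fits. Nuclear genes of the respiratory chain had 27 of 27 intervals within 2-fold and a median of 0.07, with none called (0 and 0 unadjusted). Of these 9 were higher and 0 lower in every batch, against 13.7% and 14.3% of all genes.

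**Figure D4:**
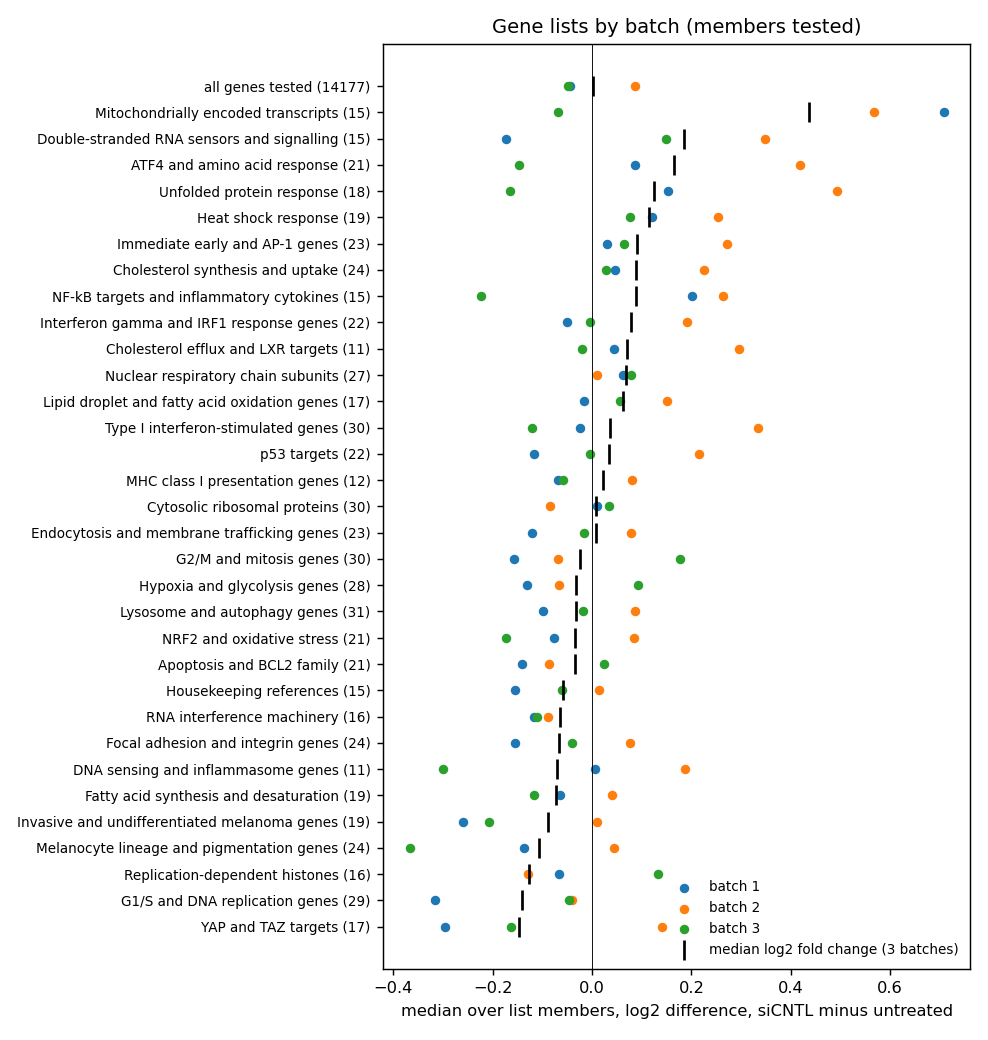
Median log2 difference of siCNTL minus untreated over the tested members of each gene list with at least 10 tested (their number in parentheses), by batch, with the median log2 fold change as a bar. The mitochondrially encoded list stands highest, batch 2 lies to the right in most lists, and all genes are in the top row.

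Of 29 tested G1/S and DNA replication genes 11 were lower in every batch and 3 higher, against 14.3% and 13.7% of all genes. The median log2 fold change was -0.14, and none was called (0 higher and 1 lower unadjusted). Fewer cells of a kind and less RNA per cell cannot be told apart in these bulk libraries. CCNE2, cyclin E2, was at 38.2, 36.3 and 24.2 TPM in untreated and 23.3, 21.6 and 13.9 TPM in siCNTL libraries, without overlap (-0.72, -1.05 to -0.40, adjusted p = 0.301). It overlaps INTS8 and NDUFAF6, each over 1 TPM, on the other strand. CCND3, cyclin D3, was at 128, 129 and 143 TPM against 85.4, 91.8 and 64.4 TPM, without overlap (-0.73, -1.03 to -0.43, adjusted p = 0.296). Without siCNTL replicate 3 it passed at -0.53 (adjusted p = 0.0468). The 30 G2/M genes all lay within 2-fold, with a median of -0.02, 4 members higher and 4 lower in every batch, batch medians of -0.16, -0.07 and 0.18, and 1 higher and 1 lower unadjusted.

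Melanocyte lineage and pigmentation genes were tested for 24 of 27 members. None was called, 0 being higher and 5 lower unadjusted, against 3.54% and 3.20% of all genes. In every batch 8 were lower and 2 higher, against 14.3% and 13.7% of all genes, and the median was -0.11. The batch medians were -0.14, 0.04 and -0.37. MLANA, a melanosome protein, was at 401, 364 and 341 TPM in untreated and 297, 291 and 201 TPM in siCNTL libraries, without overlap (-0.51, -0.73 to -0.28, adjusted p = 0.301), and it overlaps KIAA2026 on the other strand. TYR, the tyrosinase of melanin synthesis, was at 1303, 1223 and 1283 TPM against 1091, 1159 and 965 TPM, without overlap (-0.25, -0.43 to -0.06). SNAI2, a zinc finger repressor of the neural crest, was at 51.2, 47.4 and 56.1 TPM against 32.0, 36.8 and 31.9 TPM, and SPP1, secreted osteopontin, was at 683, 585 and 271 TPM against 490.3, 469 and 179.8 TPM. The groups of SNAI2 did not overlap and those of SPP1 did, with adjusted p of 0.372 and 0.296. CALU, a calcium-binding protein of the secretory pathway, was at 606, 569.8 and 669 TPM against 393, 461 and 428 TPM (-0.52, -0.73 to -0.32), and passed at -0.46 without untreated or siCNTL replicate 3 (adjusted p = 0.0266 and 0.0229).

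Genes of the series title did not pass the test. SOX10, the neural crest transcription factor that the other siRNAs target, was at 22.3, 26.0 and 32.4 TPM in untreated and 30.0, 28.6 and 36.8 TPM in siCNTL libraries, higher in each batch with overlap (0.24, -0.08 to 0.56). It overlaps POLR2F. ITGA3, an integrin alpha chain, was at 5.07, 4.76 and 5.84 TPM against 4.26, 6.39 and 5.54 TPM, with an interval from -0.49 to 0.55. EPHA2, an ephrin receptor, was at 9.80, 8.05 and 11.3 TPM against 9.14, 9.04 and 10.4 TPM, with an interval from -0.45 to 0.42. PTK2, which encodes focal adhesion kinase, was at 76.1, 76.9 and 108 TPM against 68.2, 79.8 and 92.5 TPM, with an interval from -0.35 to 0.14. The groups of these 3 genes overlapped.

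A larger set of genes separated the groups when batch 3 was left out. Without untreated replicate 3, 149 of the 14177 genes tested were called, 131 of them higher. Without siCNTL replicate 3, 144 were called, 127 of them higher. Both fits rest on the pairs of batches 1 and 2, with 1 residual degree of freedom per gene, so these sets are not independent. In batch 3, which these fits did not pair, 53 of the 149 (35.6%) and 50 of the 144 (34.7%) had the same sign, against 54.0% of all genes. UTS2, the vasoactive peptide urotensin 2, was at 37.3, 36.1 and 7.62 TPM in untreated and 115, 115 and 9.32 TPM in siCNTL libraries. LUC7L3, a splicing factor, was at 141, 114 and 129 TPM against 223, 227 and 102 TPM. RSRP1, a nuclear arginine and serine rich protein, was at 19.5, 15.7 and 30.4 TPM against 46.4, 37.8 and 27.2 TPM. In all 3 the siCNTL libraries of batches 1 and 2 were high, and that of batch 3 was near its untreated pair.

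Leaving out batch 2 instead gave 29 or 32 calls, of which 28 and 30 were pseudogenes, and 4 of either set kept their sign in batch 2 (13.8% and 12.5%, against 49.3% of all genes). Without either library of batch 1 there were 0 calls in limma, with 519 and 540 genes at an unadjusted p under 0.05. Across genes, the batch differences correlated weakly, with Pearson r of 0.07 for batches 1 and 2, 0.18 for batches 1 and 3 and -0.11 for batches 2 and 3. Over the 9074 protein-coding genes averaging at least 5 TPM these were 0.22, 0.14 and 0.02. The correlations are descriptions over genes, which are not independent.

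**Figure D5:**
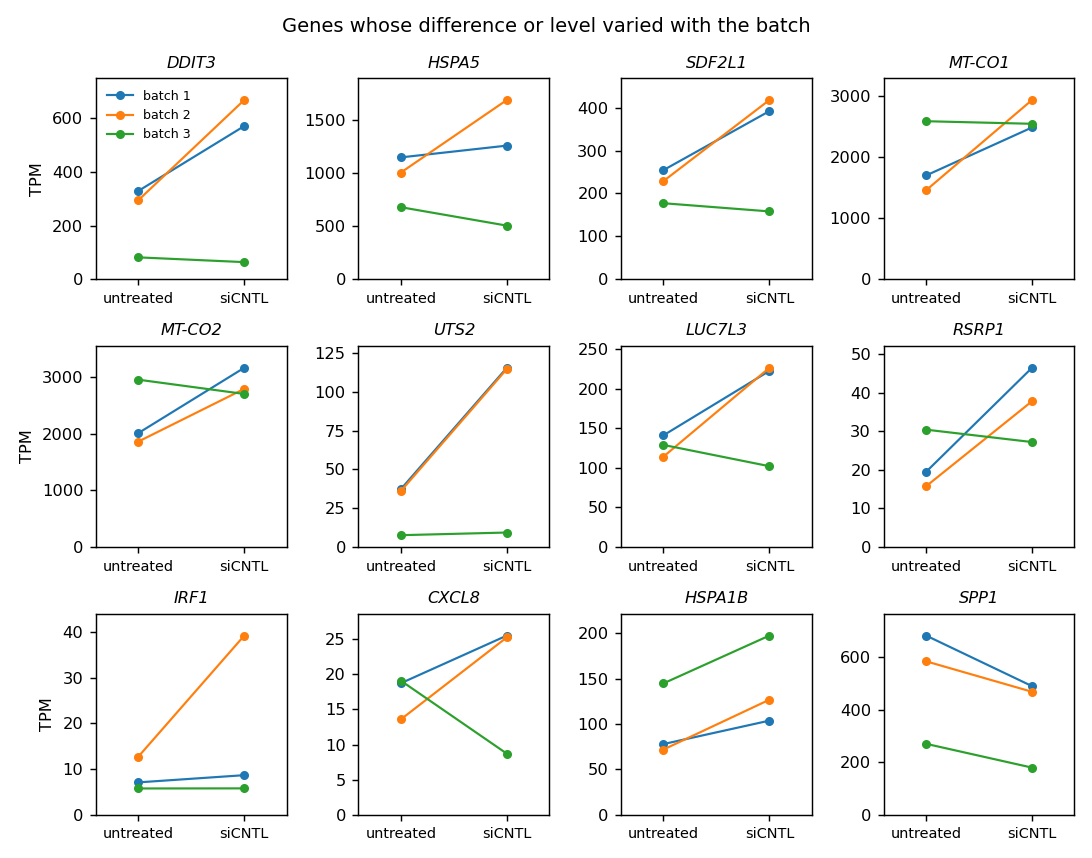
Levels (TPM, linear axes from 0) of 12 genes whose difference or level varied with the batch, in the untreated and siCNTL library of each batch. DDIT3, HSPA5, SDF2L1, LUC7L3 and RSRP1 go up in batches 1 and 2 and not in batch 3, IRF1 is high in the siCNTL library of batch 2, and HSPA1B and SPP1 keep 1 direction at different levels.

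For scale, the same kind of fit was run on each SOX10 siRNA against siCNTL. With siSOX10_1, 4070 of 14508 genes were called (28.1%), and with siSOX10_2, 4566 of 14776 (30.9%). Changes of 2-fold or more numbered 1929 and 2130, against 113 for siCNTL over untreated, and the median absolute log2 fold changes were 0.39 and 0.39 against 0.15. All 3 comparisons use the siCNTL libraries, so a deviation of their level shifts the first comparison in 1 direction and the others in the opposite one. CHCHD10, at 0.94 for siCNTL over untreated, was at -1.02 and -1.06 with the SOX10 siRNAs over siCNTL. Its mean levels were 22.4 TPM in untreated, 43.6 TPM in siCNTL and 21.7 and 22.1 TPM in the SOX10 siRNA libraries. NNMT, at -1.003, was at 2.67 and 2.81, with means of 51.9, 24.5, 147.6 and 161.9 TPM in the same order, so the SOX10 siRNA libraries lay above untreated cells. MALAT1, at 0.80, was at 0.63 (adjusted p = 0.0111) and 0.45 (adjusted p = 0.178), and was thus higher in all 3 comparisons.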

How the data were processed

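RNA was measured by RNA-seq in 6 libraries, 3 of untreated and 3 of siCNTL-transfected A2058 cells. Per the labels' protocols, libraries were made with the SMART-Seq v4 low-input kit and Nextera XT from column-purified total RNA, and bcl2fastq and DRAGEN are named, without versions, in the submitters' processing notes. The genome build, the annotation and the strand setting were not given in the sources used here. TPM were deposited by the authors for 61587 genes with coordinates, and each library sums to 1000000. TPM keep neither counts nor depth, so no counting interval is given, and a rise of abundant transcripts lowers the others. Of the gene identifiers 94.8% were found in GENCODE v29, and 99.9% of those overlapped the same place, so coordinates are given as GRCh38.

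Values were taken as log2(TPM + 1), which understates changes of low genes, and the filter of 1 TPM in at least 3 of the 6 libraries kept 14177 genes. The test was limma 3.58.1 in R 4.3.3 with the trend and robust options, the batch as a block, Benjamini-Hochberg adjustment over all genes tested and a threshold of 0.05. The intervals at 95% come from that fit. The labels give each replicate number as a batch, and libraries were paired by it. As a check, residuals about each group's mean had r of 0.204, -0.0351 and 0.298 for the pairs of batches 1, 2 and 3, and -0.364 to 0.278 over the 6 pairs of different batches. Centring within groups makes these r depend on each other. The batch 2 pair did not deviate together. The untreated library of batch 1 had a higher r with the siCNTL library of batch 2 (0.278) than with its own pair (0.204). The pairing thus rests on the labels. Each SOX10 siRNA was fitted against siCNTL in the same way, with its own filter.

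The members and the 36 gene lists were chosen with earlier results of these data known, and lists are described by counts and medians with no set test. A few list members enter the counts only and their own values are not reported here. The genes named were, per direction, the 12 with the same sign in all 3 batches, a mean of at least 5 TPM and the largest smallest difference, the called gene, the genes of the series title, up to 3 members per list with the same sign in all batches, and the 8 genes with the largest range of batch differences. NEAT1, TSC22D3, IFIT1, ISG15, IFIH1, EIF2AK2, CXCL8, DDIT3, HSPA5, SDF2L1, MT-CO1, MT-CO2, HSPA1A, CALU, CCND3, SNAI2, SPP1, UTS2, LUC7L3, RSRP1, RPS29, TBK1, HERPUD1, MANF, CHAC1, TRIB3, DDIT4, CPT1B, LUM, KRT18 and the low genes given by their range were chosen after their values were seen. Alternatives were the fit without the block, all 12 libraries in the fit, leaving out each library, pseudocounts of 0.1 and 5, no filter, a filter at 5 TPM, quantile normalization, median-of-ratios scaling, plain limma (no trend or robust options), other thresholds and a 1.5-fold bound. Figures were drawn with matplotlib 3.10.9.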

Additional observations from a re-analysis of the deposited data

How the results depend on the processing

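The count of called genes (1) depended on nearly every choice. The replicate block mattered: with no replicate block 0 genes were called, as with all 12 libraries in the fit, with or without the block. It was 0 with a pseudocount of 0.1, no filter, quantile normalization, median-of-ratios scaling, plain limma without its trend and robust options, an adjusted p under 0.01 or a minimum change of 2-fold. It was 2 with a pseudocount of 5 or an adjusted p under 0.1, 4 with a filter at 5 TPM, and 0 to 149 when 1 library was left out. Where limma called 0 genes under these settings, 519 to 1067 had an unadjusted p under 0.05 in the fits at a threshold of 0.05. The cause was not tested.

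The count of genes bounded within 2-fold (12264) was 25055 of 28464 without the filter, where more genes are tested, 10043 to 11401 with 1 library left out and 6650 with a bound of 1.5-fold. It depended on the pseudocount, at 10116 with a pseudocount of 0.1 and 13911 with a pseudocount of 5. The count with 1 sign in all batches (3968) was 108 with a smallest difference of 0.5. The median over all genes moved by less than 0.1 on the log2 scale under every scaling, and of the lists only the ribosomal protein and endocytosis medians, both near 0, changed sign with scaling.

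Of the named genes 19 changed the sign of a log2 fold change that was not called when 1 library was left out, with the cause not tested. Lowest to highest, these were CHAC1 -0.025 to 1.03, CPT1B -0.27 to 1.90, CXCL8 -0.31 to 0.64, ENSG00000269246 -1.42 to 2.52, ENSG00000273623 -0.075 to 3.12, ENSG00000276089 -1.09 to 1.94, ENSG00000279009 -0.12 to 5.21, EPHA2 -0.10 to 0.029, HSPA5 -0.15 to 0.44, IFIH1 -0.052 to 0.38, IFIT1 -0.017 to 0.051, ITGA3 -0.13 to 0.15, KRT18 -0.047 to 0.26, LUM -0.0021 to 0.16, MIR1307 -2.60 to 3.33, RNVU1-34 -1.55 to 2.18, RPL36A-HNRNPH2 -2.34 to 1.17, RPS29 -0.14 to 0.31 and TLR3 -0.025 to 0.53. Under quantile normalization IFIT1 was at -0.040 and ITGA3 at -0.019.

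TPM give no depth, and genes under 5 TPM are bounded within 1.5-fold in 2.16% of cases, so smaller changes of low genes were not detectable here.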
